A study of Drosophila melanogaster with 12 samples.

Results

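The genes described here are 92 protein-coding genes of *Drosophila melanogaster* that still carry a CG annotation symbol in the deposited tables and were higher in heads with strong than with weak knockdown of *ND-75*. They were taken from 5604 CG-named protein-coding genes in the table of both knockdowns, and from 17589 features in the series. A member had a mean of at least 5 CPM (the count as a share of the library total, on the usual per-million scale) in the strong knockdown, a ratio of the strong to the weak mean of at least 2, and every strong library above every weak library. *CG11313* was left out. The members were thus chosen by their CPM in the strong and weak libraries, so that difference is a description, and a test of it is no support. Over all features tested, 12.9% had every strong library above every weak one.

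*ND-75* encodes a core subunit of mitochondrial complex I, the first enzyme of the respiratory chain. The flies were 2 days old and formed 3 groups with 4 libraries each. Every library was made from 20 pooled heads, of which 10 were male and 10 female. ND-75KDstrong flies expressed the short-hairpin RNAi line HMS00853 and ND-75KDweak flies the long-hairpin RNAi line KK108222, both from *nSyb-Gal4*, which drives expression in neurons. Control flies carried the driver, crossed to a *white* mutant strain, without an RNAi line. According to the study's methods flies of every group also carried *Tub-Gal80ts*, a temperature-sensitive repressor of Gal4, which the sample labels do not mention. No RNAi line against an unrelated target was included, so effects of the 2 hairpins beyond *ND-75* cannot be told apart from those of the knockdown. The labels do not say whether the pools came from separate cultures, so the tests cover the spread between pools only.

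A CG symbol is the number that the genome annotation gave to a predicted gene, and a gene keeps it until a name is proposed for it. Many such genes encode small secreted proteins, cuticle proteins or enzymes placed by sequence alone. The insect head is enclosed by cuticle, in which chitin fibres are bound by several families of cuticle proteins, and the lenses of the compound eye are a specialised cuticle. A head library therefore holds RNA from epidermis, muscle, fat body, glia and photoreceptors beside the neurons in which the RNAi was driven. In such bulk samples fewer cells of a type and less RNA per cell cannot be told apart.

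Total counts lay between 22034157 and 34169956 in ND-75KDstrong, 19309427 and 32441547 in ND-75KDweak, and 20072723 and 30321519 in control libraries. *ND-75* itself had 549, 566, 497 and 579 CPM in ND-75KDstrong, against 728, 866, 1283 and 872 CPM in control. ND-75KDweak had 631, 655, 611 and 557 CPM of *ND-75*. The knockdown libraries were below every control library, but neither difference passed the edgeR quasi-likelihood test (Benjamini-Hochberg adjusted p = 0.117 for the strong and 0.116 for the weak line). The 2 knockdowns overlapped in *ND-75* and did not differ by this test (log2 fold change of strong against weak -0.18 ± 0.12 SE, edgeR adjusted p = 0.432). Heads mix neurons with other cells, so the level in neurons alone is not known. All 10 neuronal markers listed and all 10 photoreceptor markers were found, and the testis and male accessory gland markers found were below 1 CPM in every library.

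The members were lower in the weak knockdown more often than they were raised in the strong one. For 71 of the 92 members the control mean lay nearer, on a log scale, to the ND-75KDstrong than to the ND-75KDweak mean, and for 21 it lay nearer to ND-75KDweak. On a scale where the ND-75KDweak mean is 0 and the ND-75KDstrong mean is 1, the control mean had a median place of 0.736 over the members (quartiles 0.533 and 0.875). It was above 1 for 9 members and below 0 for 4. The controls did not enter the rule.

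**Figure D1:**
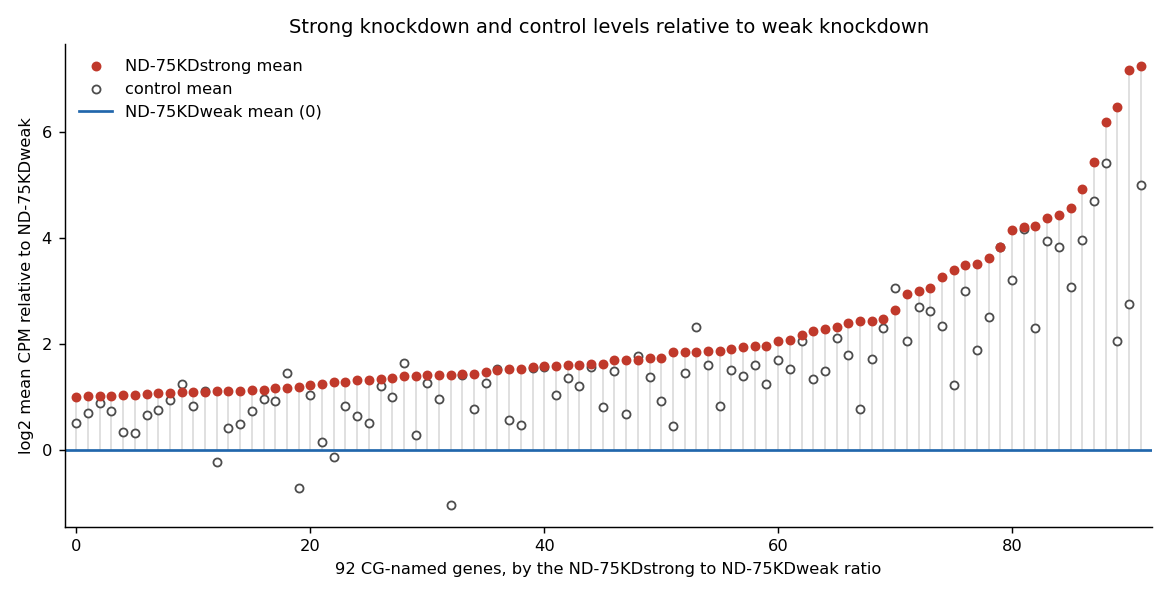
Mean CPM of each of the 92 genes in ND-75KDstrong (filled) and control (open), as log2 relative to the ND-75KDweak mean (line at 0), ordered by the ratio that the rule used. Most open circles lie near the filled ones, with a control mean above the ND-75KDstrong mean for 9 genes and below the ND-75KDweak mean for 4.

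All 92 members passed the filter on low counts in each comparison. Against control, 64 of 92 were called lower in ND-75KDweak by edgeR (adjusted p under 0.05) and none higher, beside 3.98% of all features tested that were called lower there and 2.56% that were called higher. Among the CG-named genes with a mean of at least 5 CPM in ND-75KDstrong, 4.59% were called lower. In ND-75KDstrong against control, 12 of 92 were called higher and none lower, beside 1.78% of all features that were called higher and 0.589% that were called lower. The share called higher among the CG-named genes of at least 5 CPM was 1.17%. At an unadjusted p under 0.05 no member was lower in ND-75KDstrong than in control, and 2 were higher in ND-75KDweak. DESeq2 called 22 higher in ND-75KDstrong, beside 2.74% of all features, and 72 lower in ND-75KDweak, beside 4.73%. Since the ND-75KDstrong libraries were chosen to be high and the ND-75KDweak libraries to be low, and both comparisons share the control libraries, these counts are not independent support. In the contrast of the rule 90 of 92 were called, beside 8.18% of all features, a count that the choice of members fixed in advance.

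The median log2 fold change over the members was -1.33 in ND-75KDweak against control and 0.45 in ND-75KDstrong against control, while the medians over all features tested were -0.01 and -0.02. Every control library lay above every ND-75KDweak library for 70 members. Over all features tested, 11.3% had ND-75KDweak below control without overlap. Every ND-75KDstrong library lay above every control library for 19 members, against 4.68% of all features. The controls lay wholly between both knockdowns for 9 members, overlapped ND-75KDstrong alone for 61, overlapped ND-75KDweak alone for 10, and overlapped both for 12. The shares of all features in these joint classes were not computed, so the counts are a description only.

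The same placing was seen among 147 protein-coding genes with other names that met the same minimums. Their controls had a median place of 0.721 (quartiles 0.505 and 0.854), and 103 of them had every control library above every ND-75KDweak library. In the opposite direction the same minimums gave 20 CG-named genes that were higher in ND-75KDweak. Their controls had a median place of 0.733 on the same scale (quartiles 0.263 and 1.052) and lay nearer to ND-75KDstrong for 11.

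The most abundant member was *CG7203*, whose deposited description is a cuticle protein. It had 2840, 2114, 2388 and 2279 CPM in ND-75KDstrong, against 786, 2040, 813 and 814 CPM in ND-75KDweak. Controls had 1686, 2633, 2381 and 2994 CPM, the level of the strong knockdown. ND-75KDweak replicate 2 stood just below the lowest ND-75KDstrong library and far above its own group, and the difference between ND-75KDweak and control was not called (log2 fold change -1.09 ± 0.31 SE, edgeR adjusted p = 0.068). An exon of a noncoding RNA gene on the other strand overlaps *CG7203*, and the libraries keep no strand.

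*CG8736*, a cuticle protein of the CPCFC family, came next with 1303, 1759, 1230 and 701 CPM in ND-75KDstrong and 129, 509, 127 and 132 CPM in ND-75KDweak. Its controls had 833, 1314, 1197 and 1088 CPM. Here too ND-75KDweak replicate 2 was the highest of its group, but it stayed below all control libraries. The gene was called lower in ND-75KDweak than in control (log2 fold change -2.28 ± 0.45 SE, edgeR adjusted p = 0.011).

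**Figure D2:**
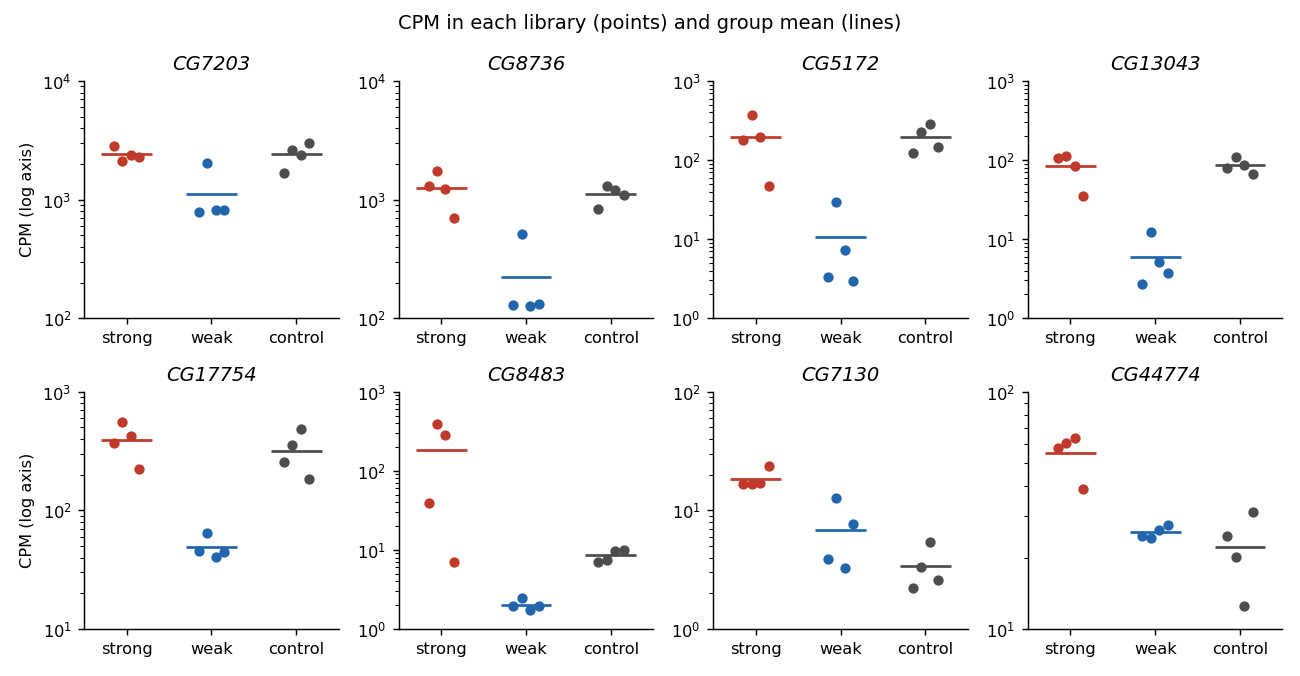
CPM (log axis) of 8 members in each library (points) with the group mean (lines), for ND-75KDstrong, ND-75KDweak and control. In the first 5 panels the controls lie with ND-75KDstrong, while *CG8483* has controls of 7.07 to 10.0 CPM below 3 of 4 ND-75KDstrong libraries, and *CG7130* and *CG44774* have controls near or below ND-75KDweak.

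Cuticle or chitin proteins made up 9 of the 92 members, 9.78%, against 0.714% of the 3360 CG-named protein-coding genes with a mean of at least 1 CPM over the knockdown libraries. Of the 147 genes with other names that met the members' own limits on ratio, level and overlap, 25 or 17% were of this kind. Of the 9 members, 7 were called lower in ND-75KDweak than in control and 1 was called higher in ND-75KDstrong than in control. Their controls had a median place of 0.857. They fell into several families. *CG7203* carries a domain named cuticle protein, *CG8736* a CPCFC domain and *CG15515*, which had means of 6.10 CPM in ND-75KDstrong, 2.02 CPM in ND-75KDweak and 6.03 CPM in control, the common insect cuticle domain. *CG13676*, *CG14301* and *CG13643* carry the chitin-binding domain first known from the peritrophic matrix of the gut. *CG13043* and *CG13062* are retinin-like, after Retinin, a protein of the corneal coat of the fly eye, and *CG14572* carries an insect domain of unknown function. Those of the 9 that the naming rule did not take, *CG15515*, *CG13676*, *CG14301* and *CG13643*, were named after their values were seen.

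*CG13043* had 105, 114, 85.4 and 35.1 CPM in ND-75KDstrong and 2.72, 12.4, 5.09 and 3.69 CPM in ND-75KDweak. Controls had 78.7, 110, 86.4 and 66.5 CPM. Strong knockdown and control overlapped, and ND-75KDweak lay below both (log2 fold change against control -3.83 ± 0.42 SE, edgeR adjusted p = 0.00043). *CG14572* had 5.82, 8.31, 5.69 and 3.24 CPM in ND-75KDstrong against 0.272, 0.466, 0.0616 and 0.172 CPM in ND-75KDweak, with controls of 1.39, 1.51, 3.18 and 2.18 CPM between them. Its ND-75KDstrong level did not pass against control (log2 fold change 1.42 ± 0.33 SE, edgeR adjusted p = 0.052).

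Genes without a Swiss-Prot match or a Pfam domain were 39 of the 92 members, 42.4%, against 23.4% of the expressed CG-named genes. The members were small: 26 of 92, 28.3%, encoded at most 150 residues in their longest coding model, against 10.7% of expressed CG-named genes. The median was 292 residues for the members and 399 for expressed CG-named genes, with a range over the members of 26 to 1408. Genes with 1 or 2 exons in that model were 42.4% of the members and 33.7% of expressed CG-named genes. Swiss-Prot and Pfam matches come from the deposited descriptions, and gene models from the Ensembl annotation.

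*CG5172*, of 172 residues, was the most abundant gene with no match. It had 181, 368, 195 and 46.5 CPM in ND-75KDstrong and 3.31, 29.3, 7.37 and 2.93 CPM in ND-75KDweak. Controls had 122, 230, 282 and 145 CPM, and the call in ND-75KDweak against control held at a log2 fold change of -4.19 ± 0.70 SE (edgeR adjusted p = 0.005). *CG13722*, which encodes 708 residues with no named domain, had 182, 328, 216 and 53.4 CPM in ND-75KDstrong, 9.42, 36.3, 7.37 and 10.2 CPM in ND-75KDweak, and 87.1, 90.0, 47.8 and 138 CPM in control. Both genes were lowest in replicate 4 of ND-75KDstrong and highest in replicate 2 of ND-75KDweak.

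**Figure D3:**
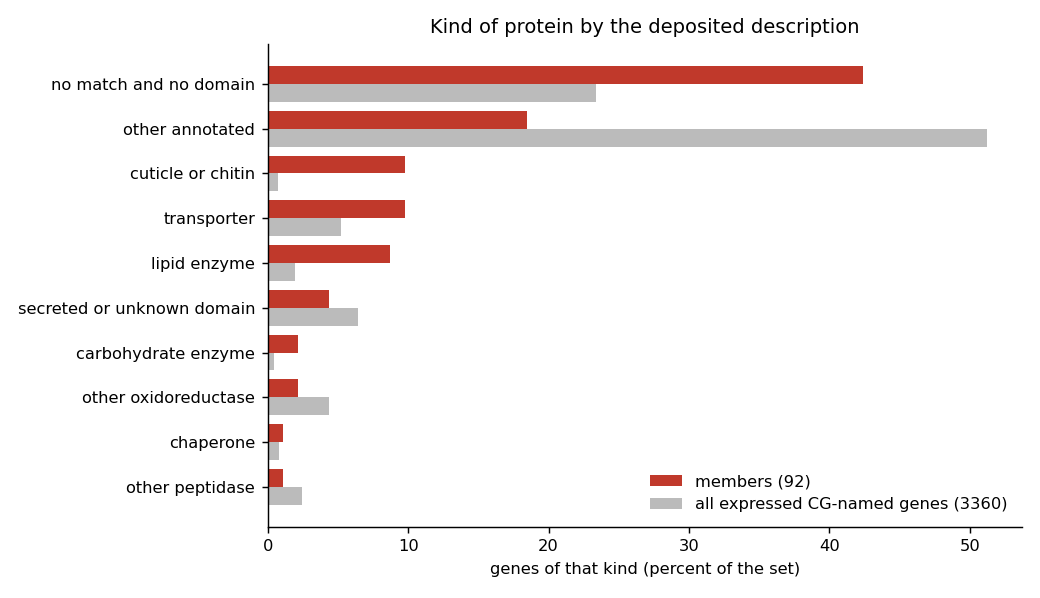
Percent of the 92 members and of 3360 expressed CG-named genes by kind of protein, read from the Swiss-Prot and Pfam text of the deposited descriptions. Cuticle or chitin proteins are 9.78% of members and 0.714% of expressed CG-named genes, and genes without a match 42.4% and 23.4%.

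Transporters numbered 9, or 9.78% against 5.24% of the expressed CG-named genes, and 7 of them were called lower in ND-75KDweak than in control. *CG5254* belongs to the mitochondrial carrier family and matches a carrier of 2-oxodicarboxylates across the inner mitochondrial membrane. It had 141, 169, 159 and 131 CPM in ND-75KDstrong and 49.5, 56.7, 48.8 and 46.6 CPM in ND-75KDweak. Controls had 122, 177, 198 and 95.5 CPM, which spanned the ND-75KDstrong range (log2 fold change of ND-75KDweak against control -1.54 ± 0.24 SE, edgeR adjusted p = 0.0032). Exons of *CG13362* on the other strand overlap *CG5254*.

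*CG13796* is a symporter of the sodium- and chloride-dependent family that carries neurotransmitters and amino acids. It had 43.9, 69.8, 48.2 and 20.8 CPM in ND-75KDstrong against 8.02, 9.74, 7.71 and 8.13 CPM in ND-75KDweak. Its controls were even, at 30.2, 29.1, 28.3 and 23.6 CPM, and its difference between ND-75KDweak and control had the smallest adjusted p of the members (log2 fold change -1.70 ± 0.15 SE, edgeR adjusted p = 0.00011). *CG7720*, a match to sodium-coupled monocarboxylate transporters, had means of 83.6 ± 29.3, 38 ± 7.12 and 63.8 ± 18.2 CPM (SD, n = 4) in ND-75KDstrong, ND-75KDweak and control. It passed in neither comparison with control. *CG6231*, which resembles organic cation transporters, was just inside the minimum ratio at 2.00.

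Lipid enzymes numbered 8, 8.70% of the members and 1.96% of the expressed CG-named genes. Of these, 5 were called lower in ND-75KDweak than in control and 3 higher in ND-75KDstrong. *CG8303* matches fatty acyl-CoA reductases, which make the fatty alcohols of waxes and other surface lipids. It had 52.8, 50.5, 54.5 and 36.8 CPM in ND-75KDstrong, 15, 12.2, 14.9 and 17.6 CPM in ND-75KDweak, and 24.9, 21.2, 27.7 and 22.2 CPM in control. No library of 1 group reached into another, and both differences from control were called (log2 fold change 0.99 ± 0.16 SE for ND-75KDstrong and -0.66 ± 0.16 SE for ND-75KDweak, edgeR adjusted p = 0.0061 and 0.038). The call in ND-75KDweak was lost without any 1 of its 4 libraries, without control replicate 1 or without control replicate 2 (edgeR adjusted p up to 0.105).

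*CG4267*, which matches pancreatic-type lipases, had 86.7, 127, 78.9 and 58.3 CPM in ND-75KDstrong and 28.1, 35.1, 21.7 and 29.8 CPM in ND-75KDweak. Control replicate 3 had 117 CPM of it, while the other controls had 53.7, 48.1 and 49.3 CPM. *CG17707* is an acyltransferase-domain protein resembling the worm protein NRF-6. It had 19.7, 41.0, 24.4 and 7.78 CPM in ND-75KDstrong against 1.81, 3.83, 2.00 and 2.00 CPM in ND-75KDweak, with controls between 10.8 and 13.9 CPM, and its exons overlap those of *tyn* on the other strand.

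Other annotated members covered several roles. *CG17754*, a Kelch-like protein, of the family whose better known members bring substrates to cullin ubiquitin ligases, had 366, 559, 422 and 222 CPM in ND-75KDstrong and 45.3, 64.7, 40.6 and 44.7 CPM in ND-75KDweak. Controls had 255, 352, 481 and 184 CPM, and ND-75KDweak was called lower than control (log2 fold change -2.70 ± 0.31 SE, edgeR adjusted p = 0.00059). *CG9934*, now named *Ube4B* after a factor that extends ubiquitin chains, had means of 225 ± 94.6 CPM in ND-75KDstrong, 74.3 ± 4.89 CPM in ND-75KDweak and 153 ± 24.3 CPM in control (SD, n = 4). Only its ND-75KDweak level differed from control by the edgeR test (adjusted p = 0.0017).

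*CG5955*, now *Tdh*, matches the mitochondrial L-threonine 3-dehydrogenase, which begins the breakdown of threonine. It had 149, 82.2, 117 and 95.4 CPM in ND-75KDstrong and 38.2, 42.6, 48.9 and 34.1 CPM in ND-75KDweak. Controls of 71.5, 66.2, 82.0 and 63.4 CPM lay between them, the highest just under the lowest ND-75KDstrong library, and ND-75KDweak was called lower than control (log2 fold change -0.76 ± 0.16 SE, edgeR adjusted p = 0.017), except without ND-75KDweak replicate 1 or 4 (adjusted p up to 0.0733). *CG7860*, a probable isoaspartyl peptidase and asparaginase, was among the members whose control mean was above the ND-75KDstrong mean, with 20.4 ± 2.53 CPM in ND-75KDstrong, 6.25 ± 0.80 CPM in ND-75KDweak and 21.6 ± 7.45 CPM in control (SD, n = 4).

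*CG9701*, a glycosyl hydrolase of family 1, gave even values of 80.0, 73.0, 76.0 and 70.0 CPM in ND-75KDstrong and 31.6, 32.5, 26.5 and 28.5 CPM in ND-75KDweak. Its controls, at 33.2, 34.8, 56.2 and 47.0 CPM, lay between the knockdowns without overlap, and neither difference from control was called (edgeR adjusted p = 0.079 for ND-75KDstrong and 0.17 for ND-75KDweak). *CG5731*, which matches alpha-N-acetylgalactosaminidase, had 5.35 to 8.10 CPM in ND-75KDstrong and 2.80 to 3.11 CPM in ND-75KDweak, with controls of 4.43 to 4.85 CPM between them. It was called lower in ND-75KDweak (edgeR adjusted p = 0.046) but not higher in ND-75KDstrong (adjusted p = 0.076), and the call was lost for 7 of the 8 libraries when left out, all but control replicate 3.

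The genes raised in ND-75KDstrong over both other groups formed the smaller share. Of the 12 called higher than control, 11 had a control mean nearer to ND-75KDweak. *CG7130* encodes a short DnaJ-domain protein, the type of cochaperone that stimulates Hsp70. It had 16.6, 16.5, 16.9 and 23.9 CPM in ND-75KDstrong and 3.90, 12.7, 3.27 and 7.65 CPM in ND-75KDweak. Controls had 2.19, 3.35, 5.37 and 2.61 CPM, so the rise over control was larger than the difference that the rule used (log2 fold change 2.43 ± 0.31 SE, edgeR adjusted p = 0.0015). The ND-75KDweak level of *CG7130* did not differ from control by the same test (log2 fold change 1.02 ± 0.44 SE, edgeR adjusted p = 0.22).

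*CG44774*, a relative of the mammalian FAM60A subunit of the SIN3 histone deacetylase complex, had 57.9, 60.7, 64.0 and 38.9 CPM in ND-75KDstrong. ND-75KDweak had 24.6, 24.3, 26.1 and 27.3 CPM and controls 24.6, 20.1, 12.5 and 31.1 CPM, which overlapped each other. Only ND-75KDstrong was called against control (log2 fold change 1.32 ± 0.23 SE, edgeR adjusted p = 0.010). *CG5071*, with a cyclophilin-type peptidyl-prolyl isomerase domain, had the same order, at 32.9 ± 8.73 CPM in ND-75KDstrong, 13.4 ± 0.83 CPM in ND-75KDweak and 12.3 ± 2.79 CPM in control (SD, n = 4).

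*CG9689*, of 173 residues and no known domain, was even within groups, with 104, 93.9, 99.1 and 113 CPM in ND-75KDstrong and 38.2, 39.3, 38.3 and 38.9 CPM in ND-75KDweak. Controls had 40.5, 47.5, 59.1 and 43.0 CPM. The rise over control was called (log2 fold change 1.10 ± 0.19 SE, edgeR adjusted p = 0.0096). *CG5399*, also without a domain, had 18.8, 20.6, 12.1 and 13.5 CPM in ND-75KDstrong, 1.31, 7.61, 1.23 and 1.83 CPM in ND-75KDweak and 4.09, 5.10, 6.51 and 4.98 CPM in control. *CG17264*, a further gene without a domain, whose exons overlap *alpha4GT1* on the other strand, had 5.46 ± 1.60, 2.38 ± 0.59 and 1.46 ± 0.39 CPM in the same order (SD, n = 4). The other genes called were *CG13062*, *CG17298*, *CG8483*, *CG8303*, *CG11406*, and *CG1941*, the last named after its values were seen. The call of *CG11406* was lost for 7 of the 8 libraries when left out, all but ND-75KDstrong replicate 4. *CG1941* matches acylglycerol acyltransferases and *CG11406* lipases.

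The largest ratios belonged to genes that were close to undetected in the weak knockdown. Of the 92 members, 17 had a ratio of at least 10, and 12 had a mean under 1 CPM in ND-75KDweak, whereas no member had a control mean under 1 CPM. *CG17298*, of 95 residues, lies within the span of the neuropeptide receptor gene *SIFaR*. It had 48.6, 106, 35.8 and 14.7 CPM in ND-75KDstrong against 0.181, 0.880, 0.216 and 0.0689 CPM in ND-75KDweak, a ratio of 152. Controls had 11.6, 10.2, 13.2 and 8.24 CPM, and the gene was called in both comparisons with control (log2 fold change 2.19 ± 0.46 SE for ND-75KDstrong and -5.11 ± 0.49 SE for ND-75KDweak, edgeR adjusted p = 0.032 and 0.00016). The first call was lost without ND-75KDstrong replicate 1 or without any 1 of the 4 controls (edgeR adjusted p up to 0.110).

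For *CG8483* and *CG34217* the ratio rested on uneven ND-75KDstrong libraries. *CG8483*, a secreted protein of the cysteine-rich family that includes venom allergens, had 39.7, 396, 283 and 7.01 CPM in ND-75KDstrong, 1.95, 2.49, 1.76 and 1.93 CPM in ND-75KDweak and 7.07, 7.39, 9.61 and 10.0 CPM in control. Replicate 4 of ND-75KDstrong was thus level with the lowest control library, at 7.01 beside 7.07 CPM, while replicates 1 to 3 were above every control library. The gene was called higher in ND-75KDstrong than in control (log2 fold change 4.32 ± 0.94 SE, edgeR adjusted p = 0.039) and lower in ND-75KDweak (-2.05 ± 0.20 SE, adjusted p = 0.00019). The call in ND-75KDstrong was lost without its replicate 2, without its replicate 3 or without any 1 of the 4 controls (edgeR adjusted p up to 0.118), and that in ND-75KDweak was lost when all 12 libraries shared 1 fit. *CG34217*, of 138 residues, had 21.3, 135, 43.9 and 1.97 CPM in ND-75KDstrong, 0.227, 0.518, 0.462 and 0.207 CPM in ND-75KDweak and 0.349, 1.14, 2.30 and 5.77 CPM in control. The highest of its ND-75KDstrong libraries was 68.7 times the lowest, and the difference of ND-75KDstrong from control was not called (edgeR adjusted p = 0.069). ND-75KDweak was called lower than control (log2 fold change -2.72 ± 0.71 SE, edgeR adjusted p = 0.045), a call lost for 6 of the 8 libraries when left out, all but control replicates 1 and 2.

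*CG4757*, a carboxylesterase whose Swiss-Prot match is a beetle juvenile hormone esterase, had the opposite order of libraries, with 92.8, 50.8, 126 and 347 CPM in ND-75KDstrong. ND-75KDweak had 11.4, 11.3, 12.2 and 18.9 CPM and controls 21.9, 33.9, 113 and 30.7 CPM. It was called lower in ND-75KDweak (edgeR adjusted p = 0.043) but not higher in ND-75KDstrong (adjusted p = 0.38), and the call was lost without any 1 of the 4 ND-75KDweak libraries or control replicate 2 (edgeR adjusted p up to 0.117). *CG12766*, an aldo-keto reductase, was also highest in replicate 4, with 14.0 CPM beside 5.79, 6.67 and 7.13 CPM in the other ND-75KDstrong libraries.

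At the other end were members whose controls exceeded the strong knockdown. *CG17107*, of 96 residues, had 19.5, 8.35, 9.07 and 21.0 CPM in ND-75KDstrong, 4.58, 3.16, 4.25 and 3.93 CPM in ND-75KDweak and 14.7, 17.3, 29.8 and 17.9 CPM in control. *CG14770*, of 151 residues, had means of 7.50, 1.20 and 10.0 CPM in ND-75KDstrong, ND-75KDweak and control, and *CG42807*, of 278 residues, 52.4, 23.2 and 63.5 CPM. In none of the 3 did ND-75KDstrong separate from control.

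On the deposited FPKM scale, which divides by gene length, the order of abundance in ND-75KDstrong began with *CG7203* at 3238 and *CG8736* at 1586 FPKM. *CG5172* followed with 241 FPKM, whereas *CG17754* had 111 FPKM and *CG9934* 45.7 FPKM. These 2 cuticle genes were the highest members per length as well as per read.

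The members were spread over the genome in about the proportions of the expressed CG-named genes. Chromosome arm 3R held 24 of them (26.1% against 25.5% of expressed CG-named genes), X held 21 (22.8% against 18.2%), 3L and 2R 17 each (18.5% against 19.3% and 19%) and 2L 13 (14.1% against 17.7%). The positions in the deposited tables equal those of the release 6 annotation for all 92. Exons of another gene overlap exons of 24 members, on the other strand in 21 of them, and reads from such pairs cannot be told apart in these unstranded libraries.

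Although most members stood alone, 12 lay in 4 runs with gene starts within 20000 bases of each other. These were 13% of the members, against 81.9% of the expressed CG-named genes by the same distance. That set has 3360 genes and is denser on the genome, so the shares cannot be compared directly. The longest run of members was on 3L:16277435-16315149 and held *CG13065*, *CG13046*, *CG4962*, *CG13043* and *CG13062*. It spans the retinin-like cluster, with 14 protein-coding genes of the tables, of which 7 passed the filter on low counts in ND-75KDstrong against ND-75KDweak. The means in ND-75KDstrong, ND-75KDweak and control were 35.4, 0.814 and 21.2 CPM for *CG13065*, 6.07, 0.341 and 3.15 CPM for *CG13046*, and 62.1, 14.9 and 48.5 CPM for *CG4962*. The last gene of the run, *CG13062*, differed from the other members of the run in the controls.

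*CG13062* had 7.11, 11.1, 8.16 and 2.32 CPM in ND-75KDstrong, 0.272, 0.984, 0.801 and 0.655 CPM in ND-75KDweak and 1.49, 1.51, 1.35 and 2.01 CPM in control. Its rise over control was called (log2 fold change 2.12 ± 0.37 SE, edgeR adjusted p = 0.010). *CG13043*, less than 20000 bases away, had almost equal means in ND-75KDstrong and control, at 84.9 and 85.5 CPM. *CG13063* in the same run missed the CPM minimum with 4.82 CPM in ND-75KDstrong, 0.140 CPM in ND-75KDweak and 5.01 CPM in control. *CG13042*, also in this run and named after its values were seen, did not follow the members. It had 0.376 CPM in ND-75KDstrong, 0.321 CPM in ND-75KDweak and 1.25 CPM in control. The knockdowns did not differ in it (log2 fold change 0.217, edgeR adjusted p = 0.77).

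On X:17218667-17223815, 3 neighbours without a known domain, *CG12998*, *CG5172* and *CG34327*, were all members, and no further protein-coding gene of the tables lies between them. *CG12998* had 29.7, 42.1, 18.5 and 13.3 CPM in ND-75KDstrong, 1.22, 2.95, 0.247 and 0.379 CPM in ND-75KDweak and 15.7, 21.1, 21.0 and 10.8 CPM in control. *CG34327* had 96.1, 103, 91.9 and 49.4 CPM in ND-75KDstrong, 15.4, 34.5, 12.7 and 13.3 CPM in ND-75KDweak and 48.7, 78.2, 98.6 and 91.4 CPM in control. All 3 were called lower in ND-75KDweak than in control, with log2 fold changes of -3.92, -4.19 and -2.05, and none was called in ND-75KDstrong. The remaining runs were pairs, *CG14752* with *CG8736* on 2R and *CG13639* with *CG13641* on 3R.

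Libraries of a group did not hold the members at 1 level. Among the ND-75KDstrong libraries replicate 4 was the lowest for 71 of 92 members, against 49.9% of all features tested, and replicate 2 the highest for 57, 62.0% against 22.2% of all features. In ND-75KDweak replicate 2 was the highest for 62, 67.4% against 35.6%. Among the controls, which the rule did not use, replicate 3 was the highest for 51, 55.4% against 34.9%, and replicate 1 the lowest for 48, 52.2% against 28.3%.

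**Figure D4:**
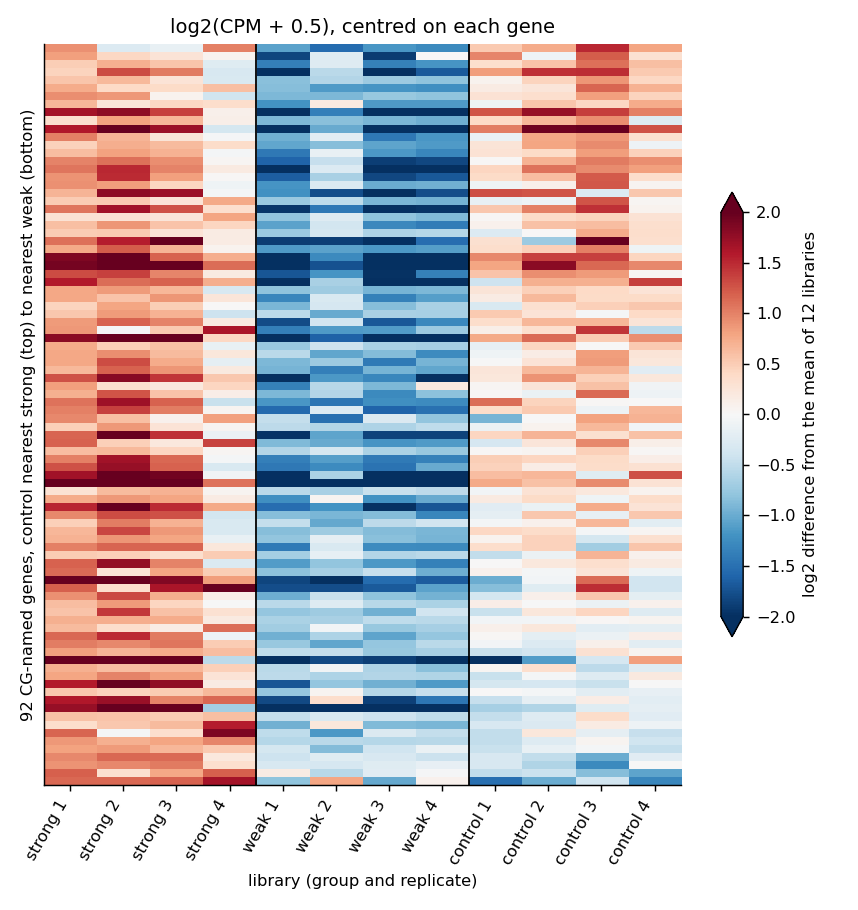
log2(CPM + 0.5) of the 92 members (one line each) in the 12 libraries, centred on the mean of each gene, with the genes ordered from controls nearest ND-75KDstrong (top) to controls nearest ND-75KDweak (bottom). ND-75KDstrong replicate 4 is paler than replicates 1 to 3 over most genes and was the lowest of its group for 71, and ND-75KDweak replicate 2 was the highest of its group for 62.

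Summed over the members, ND-75KDstrong libraries had 8712, 9870, 8386 and 6406 CPM, ND-75KDweak libraries 2058, 4080, 2078 and 2129 CPM, and controls 5348, 7339, 7653 and 6967 CPM. The sums of cuticle and of muscle markers had their lowest libraries in ND-75KDweak, as the members did. For both lists the ND-75KDweak range overlapped that of ND-75KDstrong. For muscle it also overlapped the control range, but every cuticle sum in ND-75KDweak was below every control sum. Photoreceptor, hemocyte, yolk and fat body sums had their highest libraries in ND-75KDweak. The 12 cuticle and epidermis markers found summed to 701 to 1886 CPM in ND-75KDstrong, 531 to 753 CPM in ND-75KDweak and 803 to 1146 CPM in control. Of these 12, 8 were called lower in ND-75KDweak than in control and none higher, and 2 were called lower in ND-75KDstrong, where no member was. The 7 muscle markers summed to 5870 to 10141 CPM in ND-75KDstrong, 4575 to 7973 CPM in ND-75KDweak and 7621 to 10923 CPM in control, with 2 of 7 called lower in ND-75KDweak.

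In both marker lists ND-75KDstrong replicate 4 was the lowest and ND-75KDweak replicate 2 the highest of its group, as in the members. In ND-75KDweak, replicate 2 had 753 CPM of cuticle markers beside 546 CPM in replicate 3, the next highest, and 7973 beside 5156 CPM of muscle markers. The neuronal and glial sums were also lowest in ND-75KDstrong replicate 4, at 1726 and 2356 CPM. Their ND-75KDweak replicate 2 was almost level with replicate 1, at 3084 beside 3079 CPM for neuronal and 2870 beside 2864 CPM for glial markers. None of the 10 neuronal, 7 glial and 10 photoreceptor markers was called in either knockdown against control. Photoreceptor markers summed to 24114 to 27235 CPM in ND-75KDstrong, 31370 to 35911 CPM in ND-75KDweak and 27283 to 32365 CPM in control, so that ND-75KDstrong was the lowest group. Hemocyte markers were likewise lower in ND-75KDstrong, at 418 to 442 CPM, than in ND-75KDweak, at 640 to 742 CPM, with 4 of 7 called between the knockdowns, and controls had 371 to 615 CPM. Yolk and ovary markers summed to 27247 to 56779 CPM in ND-75KDstrong, 44784 to 65314 CPM in ND-75KDweak and 32395 to 39034 CPM in control, and 2 were called higher in ND-75KDweak than in control. Fat body markers summed to 5885 to 8570 CPM in ND-75KDstrong, 8223 to 9770 CPM in ND-75KDweak and 2182 to 7160 CPM in control, and control replicate 3 was the lowest. Of these 8 markers, 3 were called higher in ND-75KDstrong than in control, and 1 was called higher and 3 lower in ND-75KDweak. The part of these tissues in the levels of the members was not tested.

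**Figure D5:**
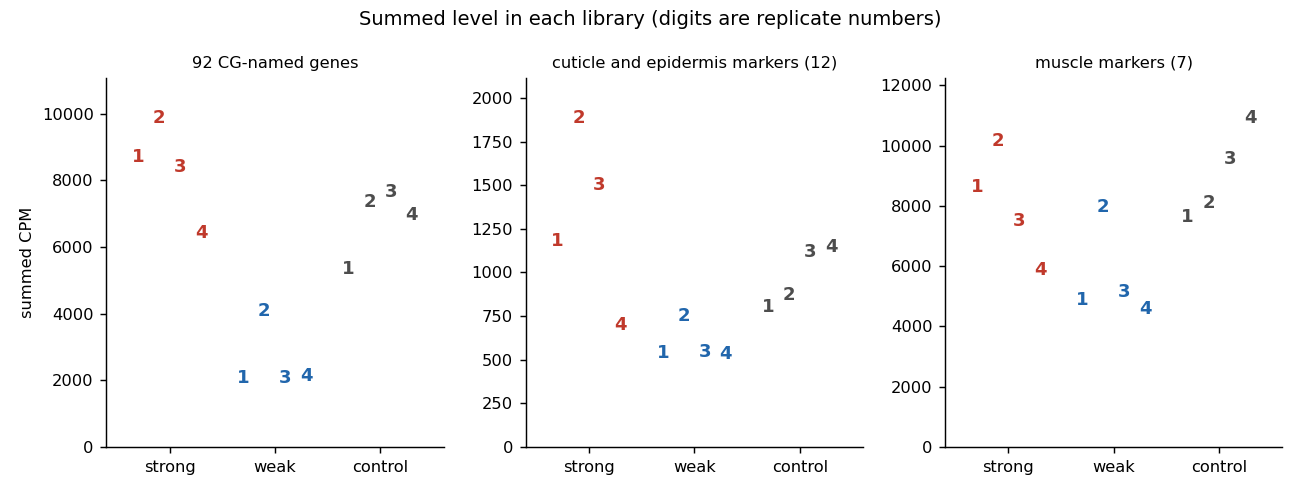
Summed CPM of the 92 members, of 12 cuticle and epidermis markers and of 7 muscle markers in each library, with the digit giving the replicate. ND-75KDstrong replicate 4 is the lowest and ND-75KDweak replicate 2 the highest of its group in all 3 panels. The neuronal and glial marker sums, which are not drawn, had the same order.

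The calls in ND-75KDstrong against control depended on these libraries. Without ND-75KDstrong replicate 4, edgeR called 25 of 92 members higher, beside 2.21% of all features, and without both that library and control replicate 3 it called 45, beside 3.84%. All 12 of the first call were among them in both cases. In ND-75KDweak against control 76 were called lower without both control replicate 3 and ND-75KDweak replicate 2, beside 8.64% of all features, and 64 of these were the first ones. Members with every ND-75KDstrong library above every control library were 44 without ND-75KDstrong replicate 4, beside 9.08% of all features in the same setting. For most members ND-75KDstrong replicate 4 was the lowest of its group and control replicate 3 the highest. Leaving them out therefore favours members above control, and the larger counts are not added support.

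Genes nearest the CPM minimum differed widely in their ratios. Just inside the ratio were *CG6231* at 2.00, *CG1103* at 2.02 and *CG32669* at 2.04, and just outside it *CG17350* at 1.99, *CG32579* at 1.97 and *CG11069* at 1.97. Just inside the CPM minimum were *CG7714* with 5.13, *CG4586* with 5.40 and *CG11406* with 5.41 CPM in ND-75KDstrong, and just outside it *CG14565* with 4.83, *CG13063* with 4.82 and *CG18213* with 4.72 CPM. Of these, *CG7714*, *CG14565* and *CG13063* had only 0.247, 0.118 and 0.140 CPM in ND-75KDweak, with ratios of 20.8, 40.9 and 34.3. The ratios of *CG4586*, *CG11406* and *CG18213* were 2.10, 2.91 and 4.01. A further 29 CG-named genes met the ratio and the CPM minimum but had overlapping groups.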

How the data were processed

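RNA from heads of 12 pools was sequenced from libraries of a kit that keeps no strand. According to the submitters' processing notes the authors trimmed reads with fastp, aligned them with HISAT2, counted them with featureCounts and tested them with DESeq2. For versions and build, nothing is given in the sources used here. The authors deposited raw counts per feature and FPKM values per library, which they computed from the counts, in 3 tables, 1 for each pair of groups. Libraries shared by tables had the same counts (0 features differed). The 24 columns of normalized counts and the authors' columns of fold changes with their p-values were not used.

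CPM was the count over the column total on the usual per-million scale, with the knockdowns read from the table that holds both and the controls from the table that holds ND-75KDstrong. Each comparison was fitted on its 8 libraries in R 4.3.3 with edgeR 4.0.16 (limma 3.58.1 loaded), with filterByExpr (minimum count 10, minimum total 15), TMM scaling and the quasi-likelihood test. Calls took an adjusted p (Benjamini-Hochberg) under 0.05 over all features tested. These numbered 10522 for ND-75KDstrong and 10415 for ND-75KDweak against control and 10638 between the knockdowns. Standard errors were derived from fold changes and F statistics. DESeq2 1.42.0 was 1 alternative. Others were RLE scaling, no filter, protein-coding genes alone, all 12 libraries in 1 fit, the replicate number as a block and libraries left out. On simulated counts with 200 features changed, edgeR recovered 56.1%, 67.3% and 64.6% of features changed by 1 on the log2 scale in ND-75KDstrong against control, ND-75KDweak against control and ND-75KDstrong against ND-75KDweak.

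Gene models and overlaps came from Ensembl release 115 (BDGP 6.54), and current symbols were found for 92 of 92 members, 8 of which have since been renamed. Kinds were read from the deposited Swiss-Prot and Pfam text by fixed word lists, the first match counting. Figures were drawn with Python 3.11.15 and matplotlib 3.10.9. Genes named are the 10 most abundant members, the 8 with the largest ratio, the 8 with the smallest p per direction against control, the 3 with the highest and the 3 with the lowest controls relative to ND-75KDstrong, those in runs of 3 or more (up to 4 each), those at the limits of the rule, up to 3 of each kind, and *ND-75*. The members, lists, tests and alternatives were chosen with earlier results of these data known.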

Additional observations from a re-analysis of the deposited data

Results flagged for a closer look

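In 147 groups of 4 libraries (49 members named by the rule, 3 groups each), the gap between the highest or lowest library and its nearest neighbour was set against the range of the group (Dixon's criterion). Chance marks about 1 in 20 groups, and 18 (12.2%) were marked.

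ND-75KDweak replicate 2 stood above the rest of its group for 10 members: *CG12766* (5.23 CPM), *CG13065* (2.28 CPM), *CG13722* (36.3 CPM), *CG17707* (3.83 CPM), *CG34327* (34.5 CPM), *CG5172* (29.3 CPM), *CG5399* (7.61 CPM), *CG7203* (2040 CPM), *CG8736* (509 CPM) and *CG9119* (131 CPM). ND-75KDweak replicate 4 was high for *CG4757* (18.9 CPM).

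ND-75KDstrong replicate 4 was high for *CG12766* (14.0 CPM), *CG7130* (23.9 CPM) and *CG9119* (270 CPM) and low for *CG5731* (5.35 CPM). ND-75KDstrong replicate 3 was low for *CG4586* (4.93 CPM). Control replicate 3 was high for *CG4267* (117 CPM) and *CG4757* (113 CPM).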

How the results depend on the processing

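The rule gave 93 members with TMM-scaled CPM, 85 of them among the 92. It gave 176 at a ratio of at least 1.5, 52 at a ratio of at least 3, 174 at a mean of at least 1 CPM and 65 at a mean of at least 10 CPM, and 85 to 126 when 1 library was left out. Members called higher in ND-75KDstrong than in control numbered 22 with DESeq2 (2.74% of all features), 45 without both control replicate 3 and ND-75KDstrong replicate 4 (3.84%), and 8 to 25 when 1 library was left out (1.31% to 2.21%). Those called lower in ND-75KDweak numbered 43 to 65 when 1 library was left out (1.92% to 5.24% of all features) and 62 to 76 under the other alternatives, the 76 without both control replicate 3 and ND-75KDweak replicate 2 (8.64%). With 1 library left out, members with controls nearer to ND-75KDstrong numbered 64 to 73. Those with every control above every ND-75KDweak library numbered 70 to 80, beside 11.3% of all features with every library kept. That share was not computed with 1 library left out. Those with every control below every ND-75KDstrong library numbered 19 to 44, beside 4.68% to 9.08% of all features. Between the knockdowns, the contrast that the rule used, 83 to 89 were called with 1 library left out, beside 5.54% to 9.57% of all features. Of the named members called, 3 of 11 in ND-75KDstrong against control and 9 of 34 in ND-75KDweak against control lost the call with at least 1 library left out, and none changed sign under any alternative. The cause of these changes was not tested.

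Replicate numbers did not pair the libraries: the correlations of same-numbered libraries' deviations from their group means were -0.0476, -0.097, -0.39 and -0.445 for ND-75KDstrong with control and -0.0678, -0.0793, 0.0515 and -0.168 for ND-75KDweak with control. With the replicate block 6 members were called higher in ND-75KDstrong (1.08% of all features) and 66 lower in ND-75KDweak (4.13%) than in control. In simulated counts edgeR recovered 56.1% to 67.3% of changes of 1 on the log2 scale, so an uncalled member may still differ.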
